A study of Homo sapiens with 6 samples.

Results

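Raji is a human B-cell line from a Burkitt lymphoma, a tumour of germinal centre B cells. The 10 genes described here are 9 members of the TNF receptor family without a death domain that are known from B cells or their partners (CD40, CD27, TNFRSF13B, TNFRSF13C, TNFRSF17, TNFRSF14, TNFRSF8, TNFRSF1B and LTBR) and CD70, the ligand of CD27. They were chosen by gene symbol, and all 10 were found among 58735 genes of the deposited table. In 3 libraries the cells had been exposed overnight to 1 nM bryostatin-1, a compound that binds protein kinase C, and in the other 3 to its solvent DMSO. All 6 carried a reporter labelled GFP-ffluc, and RNA was selected by poly(A) tail.

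Receptors of this family sit on the cell surface and bind trimeric ligands of the TNF family. Lacking a death domain, these receptors recruit TRAF adaptor proteins, which lead to the canonical and non-canonical NF-kB pathways. In B cells CD40 carries T-cell help and the receptor encoded by TNFRSF13C carries the survival signal of BAFF. CD27 marks germinal centre and memory B cells.

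The question was how far overnight bryostatin altered the transcript levels of these genes. Levels are FPKM, fragments per kilobase of gene length scaled to library size. Reads on genes, recovered from the FPKM values, numbered 19405370 to 24468270 per library. All 7 B-cell markers reported, MS4A1, CD79A, CD79B, PAX5, CD22, EBF1 and BLK, were above 1 FPKM on average. Their summed level was 948 to 1290 FPKM with bryostatin and 896 to 1384 FPKM with DMSO. Of 8 T-cell markers only TRAC exceeded 1 FPKM, CD2 had no read, and the sum was 3.49 to 13.6 FPKM with bryostatin and 3.26 to 11.9 FPKM with DMSO. NK-cell markers had 1 of 7 above 1 FPKM (NKG7), with sums of 2.15 to 3.51 FPKM with bryostatin and 2.02 to 4.96 FPKM with DMSO, and NCAM1, KLRD1 and NCR1 had no read. Monocyte and macrophage markers had 0 of 8, with sums of 0.151 to 0.663 FPKM with bryostatin and 0.505 to 1.01 FPKM with DMSO, and S100A8 and MRC1 had no read. Plasma-cell markers had 4 of 6, with sums of 348.9 to 392.0 FPKM with bryostatin and 343.7 to 394.4 FPKM with DMSO. Above 1 FPKM were IRF4, XBP1, MZB1 and JCHAIN, the last averaging 239.0 FPKM. SDC1 had 2 reads over all libraries and PRDM1 averaged 0.502 FPKM. DMSO replicate 3 stood apart from the other DMSO libraries. Its reads differed from theirs with a chi-square of 37.6 and 38.9 per gene, against 18.6 between DMSO replicates 1 and 2 and 11.6 to 22.0 among the bryostatin libraries. Separate cultures are not stated in the labels, so a p-value here reflects only how far these 6 libraries scatter, and that scatter may be technical.

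The family spanned silent genes to some of the more abundant transcripts of the cell line. CD70 averaged 120.4 FPKM over the 6 libraries and CD27 78.1 FPKM, and 285 and 473 genes of the whole table had a higher mean. CD70 exceeded CD27, and CD27 exceeded TNFRSF13C, in 6 of 6 libraries. TNFRSF13C at 51.1 FPKM and CD40 at 50.4 FPKM did not separate, TNFRSF13C being the higher in 4 of 6. A step of 4.63-fold led down to TNFRSF14 at 10.9 FPKM, followed by TNFRSF1B at 3.74 FPKM. TNFRSF13B at 1.53 FPKM and TNFRSF17 at 1.21 FPKM again did not separate, with TNFRSF13B higher in 4 of 6 libraries. TNFRSF8 at 0.155 FPKM and LTBR close to 0 ended the order. CD70, CD27, TNFRSF13C and CD40 together made up at least 94.5% of the family's summed FPKM in each bryostatin library and at least 92.9% in each DMSO library.

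**Figure D1:**
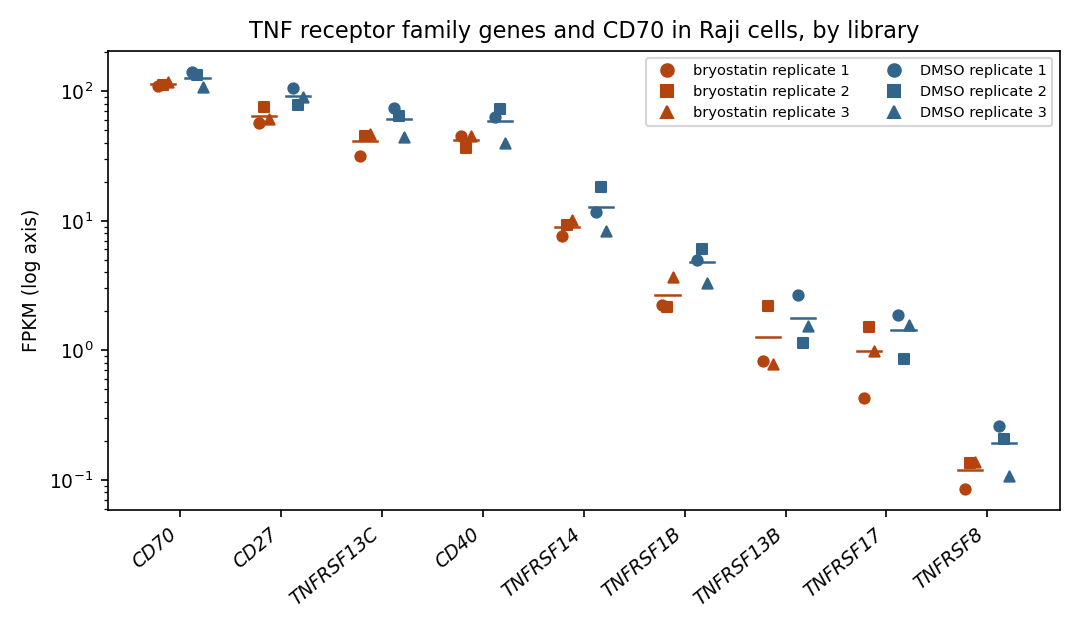
FPKM on a log axis for 9 of the 10 genes in each library, bryostatin (orange) left of DMSO (blue), with the symbol giving the replicate and the short line the mean of 3 libraries. LTBR is left out because 5 of its 6 values are 0. CD27 is the only gene plotted whose bryostatin points, 57.2 to 76.0 FPKM, all lie below its DMSO points, 78.3 to 105.7 FPKM.

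CD27 and its ligand CD70 were transcribed side by side in these cells. CD27 (ENSG00000139193, chromosome 12, 6444867 to 6451718, hg38, plus strand) was at 57.2, 76.0 and 60.6 FPKM in bryostatin replicates 1 to 3, against 105.7, 78.3 and 90.5 FPKM in DMSO replicates 1 to 3. The groups did not overlap, although bryostatin replicate 2 lay close under DMSO replicate 2. Of the 11071 genes tested, 10.7% were lower with bryostatin without overlap and 12.9% were higher without overlap. The log2 change of CD27 was -0.50 ± 0.15 (SE), or 1.41-fold lower, with a 95% interval from -0.85 to -0.14, and it did not pass adjustment over all genes (adjusted p = 0.225 in limma).

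CD70 (ENSG00000125726, chromosome 19, 6583183 to 6604103, minus strand) was at 109.9, 111.8 and 118.1 FPKM in bryostatin replicates 1 to 3, against 141.7, 132.9 and 108.0 FPKM in DMSO replicates 1 to 3. DMSO replicate 3 was the lowest library of all for CD70, and the bryostatin libraries stayed within a CV of 3.78%. Its log2 change was -0.16 with a 95% interval from -0.44 to 0.12 (adjusted p = 0.486 in limma). Within a library, CD27 stood at 0.521, 0.680 and 0.513 times the FPKM of CD70 with bryostatin and at 0.746, 0.589 and 0.838 times with DMSO. The ranges overlapped, and the mean log2 ratio was 0.34 lower with bryostatin (two-sided exact permutation p = 0.2, where 3 against 3 cannot go below 0.1).

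CD40, the receptor for T-cell help (ENSG00000101017, chromosome 20, 46118272 to 46129863, plus strand), was at 45.2, 36.2 and 45.2 FPKM in bryostatin replicates 1 to 3, against 62.8, 72.9 and 39.98 FPKM in DMSO replicates 1 to 3. DMSO replicates 1 and 2 were above every other library, while DMSO replicate 3 lay among the bryostatin libraries. The means were 42.2 ± 5.20 FPKM with bryostatin and 58.6 ± 16.8 FPKM with DMSO (SD, n = 3 each). On the log2(FPKM + 1) scale the change was -0.43 ± 0.22 (SE), with a 95% interval from -0.94 to 0.09 (adjusted p = 0.341 in limma).

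The receptors for BAFF and APRIL differed widely in level, with TNFRSF13C, which encodes the BAFF receptor, far above the others. TNFRSF13C (ENSG00000159958, chromosome 22, 41922023 to 41926818, minus strand) was at 31.7, 45.1 and 46.4 FPKM in bryostatin replicates 1 to 3, against 74.5, 64.1 and 44.5 FPKM in DMSO replicates 1 to 3. As for CD40, DMSO replicate 3 lay inside the bryostatin range. The log2 change was -0.55 ± 0.22 (SE), with a 95% interval from -1.07 to -0.03, 1.46-fold lower (adjusted p = 0.267 in limma).

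TNFRSF13B encodes TACI, which binds both BAFF and APRIL (ENSG00000240505, chromosome 17, 16929816 to 16972118, minus strand). It was at 0.832, 2.21 and 0.783 FPKM in bryostatin replicates 1 to 3, against 2.65, 1.14 and 1.53 FPKM in DMSO replicates 1 to 3. Bryostatin replicate 2 was above 2 of the DMSO libraries, and the values rested on 56 to 232 reads. Its log2 change was -0.31, with a 95% interval from -0.98 to 0.36 (adjusted p = 0.583 in limma).

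TNFRSF17 encodes BCMA, a receptor of plasma cells (ENSG00000048462, chromosome 16, 11965107 to 11968068, plus strand). It was at 0.424, 1.52 and 0.995 FPKM in bryostatin replicates 1 to 3, against 1.89, 0.857 and 1.56 FPKM in DMSO replicates 1 to 3, on 9 to 52 reads per library. The groups overlapped, with a log2 change of -0.31 and a 95% interval from -0.90 to 0.28 (adjusted p = 0.521 in limma). The size is not settled, since it was -0.66 when the recovered reads were fitted with precision weights and -0.10 without bryostatin replicate 1. For TNFRSF13B it was -0.61 with precision weights and -0.09 without DMSO replicate 1. For both genes bryostatin replicate 2 was the highest bryostatin library and DMSO replicate 2 the lowest DMSO library.

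TNFRSF13C stood at 38.1, 20.4 and 59.3 times the FPKM of TNFRSF13B with bryostatin and at 28.1, 56.0 and 29.1 times with DMSO. Against TNFRSF17 it stood at 74.7, 29.7 and 46.7 times with bryostatin and at 39.5, 74.8 and 28.5 times with DMSO. Both ratios overlapped between the groups. The mean log2 ratio differed by 0.0041 for TNFRSF13B and 0.10 for TNFRSF17, bryostatin minus DMSO (two-sided exact permutation p = 1.0 and 0.8), and either difference changes sign with the handling of low values.

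TNFRSF14 encodes HVEM, which binds LIGHT and the inhibitory receptor BTLA (ENSG00000157873, chromosome 1, 2555639 to 2565382, plus strand). It was at 7.65, 9.36 and 10.1 FPKM in bryostatin replicates 1 to 3, against 11.8, 18.1 and 8.36 FPKM in DMSO replicates 1 to 3. DMSO replicate 2 was far above the rest and DMSO replicate 3 below 2 of the bryostatin libraries. The log2 change was -0.40, with a 95% interval from -0.98 to 0.18 (adjusted p = 0.414 in limma), and it was -0.13 without DMSO replicate 2.

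TNFRSF1B encodes the TNF receptor of lymphocytes that lacks a death domain (ENSG00000028137, chromosome 1, 12167003 to 12209228, plus strand). It was at 2.23, 2.18 and 3.67 FPKM in bryostatin replicates 1 to 3, against 4.99, 6.08 and 3.31 FPKM in DMSO replicates 1 to 3. The only overlap was between bryostatin replicate 3 and DMSO replicate 3. Its log2 change was -0.65 ± 0.22 (SE), with a 95% interval from -1.17 to -0.13 (adjusted p = 0.233 in limma). This is 1.56-fold lower on the log2(FPKM + 1) scale, and 1.80-fold lower when the recovered reads were fitted with precision weights.

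TNFRSF8 encodes CD30, an activation marker of lymphocytes (ENSG00000120949, chromosome 1, 12063377 to 12144207, plus strand). It was at 0.0846, 0.134 and 0.136 FPKM in bryostatin replicates 1 to 3, against 0.260, 0.208 and 0.107 FPKM in DMSO replicates 1 to 3. This rested on 6 to 24 reads per library and lay under the 1 FPKM needed for testing, with DMSO replicate 3 again inside the bryostatin range.

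LTBR encodes the receptor for membrane lymphotoxin and LIGHT, known from stromal and myeloid cells (ENSG00000111321, chromosome 12, 6375045 to 6391571, plus strand). It had 1 read in bryostatin replicate 2 and 0 in the other 5 libraries. A count of 0 allows up to 3 reads, or 0.0194 to 0.0252 FPKM, for counting error only, and the gene was not tested.

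Over the family, 8 of 10 members passed the level needed for testing. None passed an adjusted p of 0.05, and neither did any of the 11071 genes (0%, and 1954 of them had an unadjusted p under 0.05). All 8 had lower means with bryostatin, while 46.1% of all genes tested had a negative log2 change. The members were chosen with earlier results of these data known, so their shared direction is no independent evidence. The median log2 change was -0.41 for the 8 members and 0.02 for all genes tested. CD27, TNFRSF13C and TNFRSF1B had an unadjusted p under 0.05 (0.0129, 0.0408 and 0.0217 in limma), 3 of 8, and 7.18% of all genes were lower at that level. That count was 1 of 8 without bryostatin replicate 1, without DMSO replicate 1 or without DMSO replicate 2, and 6 of 8 without DMSO replicate 3. In the same order of fits, 353, 328, 677 and 1131 of the 11071 genes were lower at that level, against 795 with all libraries. Only CD27 was lower without overlap. The family's summed FPKM was 255.3, 284.6 and 285.9 in bryostatin replicates 1 to 3, against 406.2, 374.6 and 297.9 in DMSO replicates 1 to 3. These are bulk libraries, in which fewer cells with a transcript and less transcript per cell cannot be told apart.

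**Figure D2:**
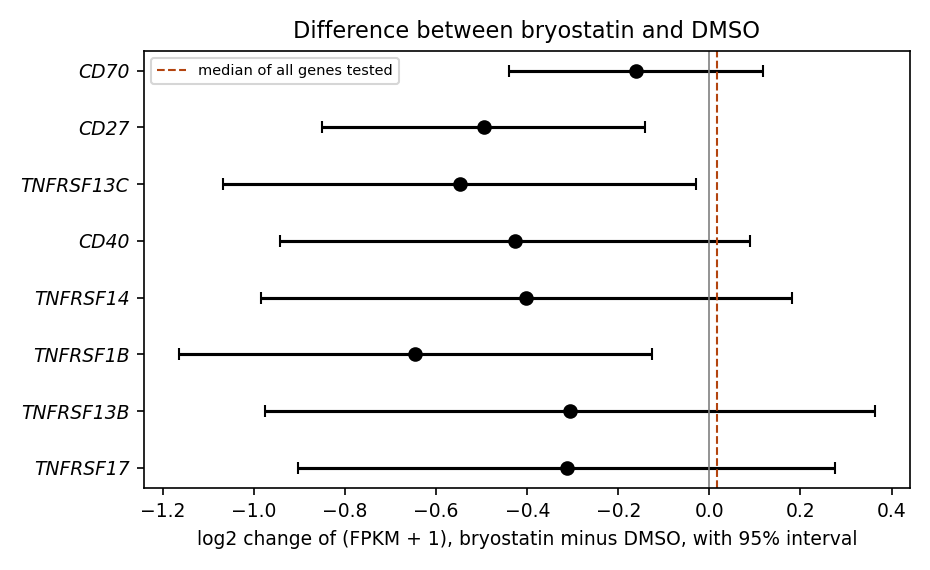
Log2 change of (FPKM + 1), bryostatin minus DMSO, for the 8 members tested, ordered by level from CD70 at the top. Points are limma estimates and bars 95% intervals from 3 libraries per group. All points lie below 0, from -0.16 for CD70 to -0.65 for TNFRSF1B, and the dashed line marks the median of all genes tested, 0.02.

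The size of these differences depended on which libraries of either group were included. Without bryostatin replicate 1 the log2 change of TNFRSF17 was -0.10, and that of TNFRSF13B was -0.58 without bryostatin replicate 2 and -0.16 without bryostatin replicate 3. Without DMSO replicate 1 it was -0.08 for CD70 and -0.09 for TNFRSF13B, and without DMSO replicate 2 it was -0.25 for CD40 and -0.13 for TNFRSF14. These values are smaller in size than with all libraries, except that of TNFRSF13B without bryostatin replicate 2. Without DMSO replicate 3 the log2 change was -0.67 for CD40, -0.76 for TNFRSF13C, -0.65 for TNFRSF14, -0.84 for TNFRSF1B and -0.28 for CD70, all larger in size. The 6 members with an unadjusted p under 0.05 in that fit stand beside 2861 of the 11071 genes, 1131 of them lower. In that fit 267 of all genes passed in limma but no member did, and CD40 came closest with an adjusted p of 0.0569. That library also stood apart in proliferation genes. The mean log2 level of 12 cell-cycle genes, relative to the mean of all libraries, was 0.44, 0.21 and 0.21 in bryostatin replicates 1 to 3, against -0.62, -0.46 and 0.22 in DMSO replicates 1 to 3. All 12 had higher means with bryostatin, with a median log2 change of 0.58, and none passed. Of the 12, 6 had an unadjusted p under 0.05 in limma and 5 were higher without overlap, where all genes gave 10.5% and 12.9%. DMSO replicate 3 lay within the bryostatin range in the mean of these 12 genes, though not in each of them. It was below that range in some, as in AURKB (37.6 FPKM against 44.3 to 53.1 FPKM). In others it was above, as in MKI67 (37.8 FPKM against 30.6 to 35.2 FPKM). Among the members other than LTBR, it lay within the bryostatin range in CD40, TNFRSF13C, TNFRSF14, TNFRSF1B, TNFRSF13B and TNFRSF8. DMSO replicate 3 was below that range in CD70 and above it in CD27 and TNFRSF17. The part of proliferation in the receptor values was not tested.

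**Figure D3:**
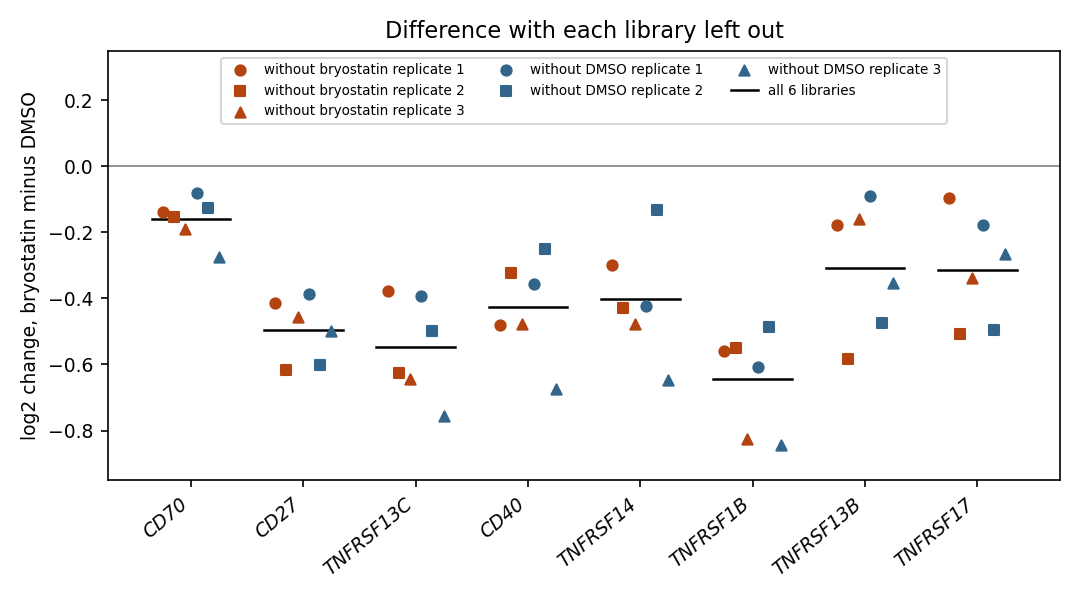
Log2 change of the 8 members with each library left out in turn (symbols, coloured by the group that lost a library) and with all libraries (black line). Every value is below 0. Leaving out DMSO replicate 3 gives the lowest value for CD70, TNFRSF13C, CD40, TNFRSF14 and TNFRSF1B, down to -0.84, and leaving out DMSO replicate 2 brings TNFRSF14 to -0.13.

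The members followed 2 profiles across the 6 libraries, described here without a test. Log2 levels of CD40 went with those of CD70, TNFRSF14 and TNFRSF1B (Pearson r = 0.882, 0.852 and 0.891 over 6 libraries), with DMSO replicates 1 and 2 high. CD27 went with TNFRSF13B and TNFRSF17 (r = 0.837 and 0.847), with DMSO replicate 1 highest and bryostatin replicate 2 the highest of its group. Between the sets r ranged from -0.0841 for CD40 and TNFRSF17 to 0.524 for CD70 and CD27, below each pair just named. TNFRSF13C related to both, with r = 0.906 to CD70 and 0.752 to CD27. The points share the treatment contrast and the library scaling. The protein-coding genes outside the family most like CD70 were TMEM159, ERGIC3 and PTDSS2 (r = 0.9946, 0.9944 and 0.9883), and those most like CD27 were EPB41, HPCAL1 and BCL2L11 (r = 0.9974, 0.996 and 0.9958). With 6 points such values are common, 260 genes having r over 0.9 with CD70 and 480 with CD27.

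Among the ligands, the cells transcribed TNF, LTA and LTB at high level, whereas CD40 ligand, BAFF, LIGHT and CD30 ligand were at or near 0. Of 10 listed ligand and partner genes only these 3 were tested, 1 higher and 2 lower with bryostatin, and none passed. LTB, the membrane anchor of lymphotoxin, was at 294.9, 181.5 and 251.1 FPKM in bryostatin replicates 1 to 3, against 317.7, 465.4 and 161.0 FPKM in DMSO replicates 1 to 3. LTA, its secreted partner, was at 98.7, 27.9 and 104.2 FPKM in bryostatin replicates 1 to 3, against 60.8, 163.7 and 32.7 FPKM in DMSO replicates 1 to 3. TNF was at 39.8, 16.7 and 52.1 FPKM in bryostatin replicates 1 to 3, against 24.7, 61.8 and 12.3 FPKM in DMSO replicates 1 to 3. For LTA and TNF bryostatin replicates 1 and 3 and DMSO replicate 2 were high and the other 3 libraries low, a split that crosses the treatment. The same libraries were high in the summed B-cell markers, with 1290, 948 and 1228 FPKM in bryostatin replicates 1 to 3, against 1096, 1384 and 896 FPKM in DMSO replicates 1 to 3. Of these markers MS4A1, CD79A and CD22 each showed that split, whereas CD79B, PAX5, EBF1 and BLK did not. BLK was lowest in bryostatin replicate 1, at 12.1 FPKM, and highest in DMSO replicate 1, at 23.3 FPKM. TRAC, the T-cell marker, was at 11.7, 3.28 and 13.5 FPKM in bryostatin replicates 1 to 3, against 3.66, 11.5 and 3.12 FPKM in DMSO replicates 1 to 3. Within each group, CD27, TNFRSF13B and TNFRSF17 ran the opposite way, with bryostatin replicate 2 the highest and DMSO replicate 2 the lowest, and the part of this split in their values was not tested. The log2 changes were -0.27 for LTB, -0.06 for LTA and 0.28 for TNF (adjusted p = 0.720, 0.972 and 0.833 in limma). The sign is not settled: without DMSO replicate 2 LTB had 0.07, LTA 0.56 and TNF 0.87, and without DMSO replicate 3 they had -0.69, -0.59 and -0.25.

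CD40LG, the ligand of CD40, and TNFSF13B, which encodes BAFF, had 1 read each in a single bryostatin library. TNFSF14, which encodes LIGHT, and TNFSF8, the ligand of CD30, had no read in any library, which allows up to 0.0331 and 0.0544 FPKM. BTLA and CD160, the lymphocyte receptors that bind HVEM, were at most at 0.0713 and 0.149 FPKM. TNFSF13, which encodes APRIL, was named after its values were seen. It was at 1.204, 0.747 and 0.794 FPKM in bryostatin replicates 1 to 3, against 0.499, 0.541 and 0.417 FPKM in DMSO replicates 1 to 3, without overlap but under the level for testing. With no filter on level its log2 change was 0.36 (adjusted p = 0.475 in limma). It shares 55.5% of its exonic bases with the readthrough gene TNFSF12-TNFSF13, itself listed at 0, so its reads are uncertain.

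**Figure D4:**
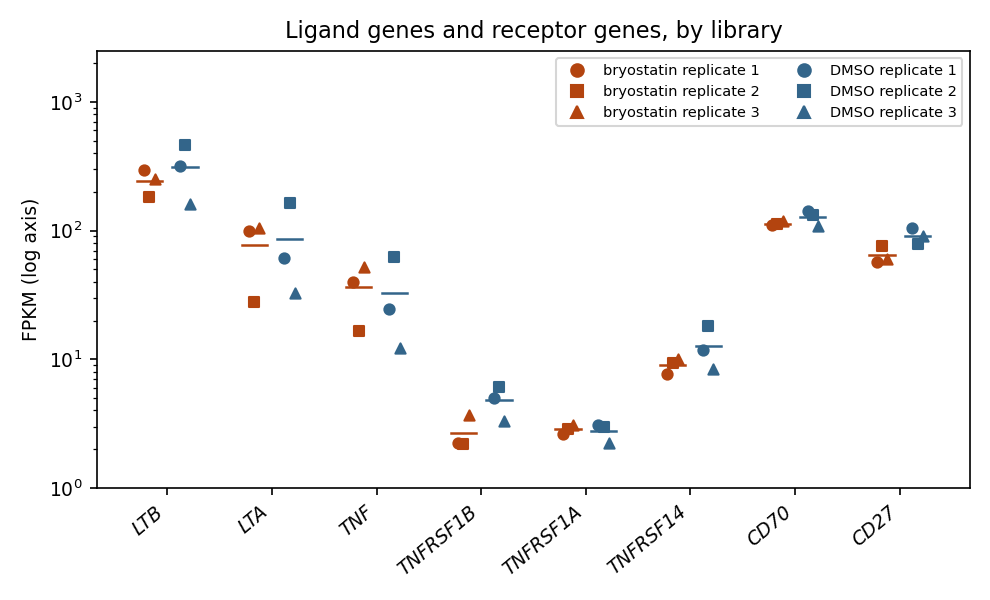
FPKM on a log axis in each library for LTB, LTA and TNF, for receptors of their ligand family, and for CD70 and CD27, with bryostatin (orange) left of DMSO (blue) and means as short lines. LTA spans 27.9 to 104.2 FPKM with bryostatin and 32.7 to 163.7 FPKM with DMSO, while CD70 spans 109.9 to 118.1 FPKM with bryostatin and 108.0 to 141.7 FPKM with DMSO.

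Downstream of the receptors, 16 of 18 listed TRAF adaptors and regulators were tested, 4 higher and 12 lower with bryostatin, with a median log2 change of -0.13. None passed. Before adjustment, p was under 0.05 in limma for 2 higher and 4 lower genes, where all genes gave 10.5% and 7.18%. Without overlap, 2 were higher and 4 lower, where all genes gave 12.9% and 10.7%. BIRC3, a TRAF-bound ubiquitin ligase, was at 78.9 ± 12.5 FPKM with bryostatin and 89.2 ± 6.54 FPKM with DMSO (SD, n = 3 each). TNIP1, which binds the NF-kB inhibitor TNFAIP3, was at 72.8 ± 5.14 FPKM with bryostatin and 88.0 ± 12.7 FPKM with DMSO. TRAF4 was at 43.1, 46.0 and 39.8 FPKM in bryostatin replicates 1 to 3, against 64.9, 62.1 and 42.9 FPKM in DMSO replicates 1 to 3. These 3 overlapped between the groups. TNFAIP3, the inhibitor known as A20, was named after its values were seen and did not overlap. It was at 17.8, 13.1 and 17.3 FPKM in bryostatin replicates 1 to 3, against 23.5, 24.7 and 23.6 FPKM in DMSO replicates 1 to 3, with a log2 change of -0.56 (adjusted p = 0.216 in limma).

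The NF-kB kinases, subunits and inhibitors had all 16 listed genes tested, 5 higher and 11 lower, with a median log2 change of -0.06. None passed. Before adjustment, p was under 0.05 in limma for 1 higher and 3 lower genes, where all genes gave 10.5% and 7.18%. Without overlap, 1 was higher and 3 lower, where all genes gave 12.9% and 10.7%. NFKB2, the precursor subunit of the non-canonical pathway, was at 36.25, 33.4 and 34.3 FPKM in bryostatin replicates 1 to 3, against 43.2, 46.4 and 36.31 FPKM in DMSO replicates 1 to 3. The groups did not overlap, but DMSO replicate 3 was barely above bryostatin replicate 1, and the log2 change was -0.26 (adjusted p = 0.273 in limma). Its partner RELB had a log2 change of -0.12 and the inhibitor NFKBIE -0.22.

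Genes known to be induced through CD40 and NF-kB had 12 of 16 tested, 1 higher and 11 lower, with a median log2 change of -0.55. None passed. Of the 12, 9 were lower at an unadjusted p under 0.05 in limma and 7 were lower without overlap, where all genes gave 7.18% and 10.7%. This list was drawn up with results of these libraries known, so its direction is no independent evidence. CD83, a surface marker of activated B cells, was at 89.5, 83.1 and 96.8 FPKM in bryostatin replicates 1 to 3, against 156.8, 152.0 and 96.7 FPKM in DMSO replicates 1 to 3. EBI3, a cytokine subunit, was at 93.1, 72.3 and 94.0 FPKM in bryostatin replicates 1 to 3, against 149.3, 157.6 and 91.4 FPKM in DMSO replicates 1 to 3. CD83 and EBI3 had DMSO replicate 3 at the level of the bryostatin libraries, as CD40 did. Others separated fully, among them CCL22, a chemokine, and BCL2A1, an inhibitor of apoptosis, named after their values were seen. CCL22 was at 12.2, 19.4 and 13.8 FPKM in bryostatin replicates 1 to 3, against 45.8, 25.2 and 29.8 FPKM in DMSO replicates 1 to 3, with a log2 change of -1.08 (adjusted p = 0.216 in limma). BCL2A1 was at 12.5, 14.6 and 17.0 FPKM in bryostatin replicates 1 to 3, against 30.1, 26.3 and 20.1 FPKM in DMSO replicates 1 to 3, with a log2 change of -0.75 (adjusted p = 0.216 in limma). JUNB, an AP-1 subunit, had a log2 change of 0.13 (adjusted p = 0.791 in limma).

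Of 20 other TNF receptor family genes, 6 were tested, 4 higher and 2 lower, with a median log2 change of 0.07, and none passed. FAS, the death receptor, which the CD40 target list also holds, was at 10.3, 11.0 and 11.1 FPKM in bryostatin replicates 1 to 3, against 14.9, 14.0 and 13.8 FPKM in DMSO replicates 1 to 3. The groups did not overlap, and its log2 change was -0.37 (adjusted p = 0.216 in limma). The TRAIL receptor genes TNFRSF10B and TNFRSF10A overlapped between the groups, with log2 changes of 0.10 and 0.22. TNFRSF9, the costimulatory receptor 4-1BB, was named after its values were seen. It was at 0.458, 0.490 and 0.432 FPKM in bryostatin replicates 1 to 3, against 1.5, 1.197 and 1.02 FPKM in DMSO replicates 1 to 3, on 55 to 234 reads per library. The groups did not overlap, and DMSO replicate 3 did not reach the bryostatin range. It lay under the level for testing, and with no filter its log2 change was -0.61 (adjusted p = 0.428 in limma).

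Some members share exonic bases with other annotated genes, and the strand setting of the counting is not given in the sources used here. CD27-AS1, on the opposite strand, covers 522 of the 1410 exonic bases of CD27, or 37.0%. How reads in these bases were assigned is not known, which leaves the level of CD27 and its ratio to CD70 uncertain. CD27-AS1 averaged 1.59 FPKM. It was at 0.974, 2.02 and 1.15 FPKM in bryostatin replicates 1 to 3, against 1.71, 2.02 and 1.68 FPKM in DMSO replicates 1 to 3, with overlap. TNFRSF14-AS1 covers 13.4% of the exonic bases of TNFRSF14. It was at 2.16, 2.86 and 2.66 FPKM in bryostatin replicates 1 to 3, against 4.71, 5.50 and 2.18 FPKM in DMSO replicates 1 to 3, so DMSO replicate 3 was low here as for TNFRSF14. TBC1D27P, a pseudogene on the same strand, covers 17.3% of TNFRSF13B and averaged 0.825 FPKM. Reads in such shared bases cannot be told apart without strand, or at all on the same strand. TAPBPL covers 2.06% of CD27 on the same strand. LTBR shares 6.72% of its exonic bases with SCNN1A, which had no read. CD40, CD70, TNFRSF17 and TNFRSF8 shared no exonic base with another annotated gene.

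Bases before the RefSeq start (GRCh38.p14) are shown for the 6 members with an entry, because they place an abundant member, CD27, beside weak and silent ones. CD40, CD70, TNFRSF13C and TNFRSF17 had none. Each is read 5′ to 3′ on the gene's strand and holds up to 250 bases outside annotated UTRs of the gene. Capitals mark matches, on either strand, to the kB motif of NF-kB, to TGANTCA (AP-1) or to GGGCGG (Sp1), which occur in 9.96%, 6.57% and 42.6% of all 35116 such windows of 250 bases. The regions are chr12:6443642-6443891 for CD27, chr1:2556262-2556365 for TNFRSF14, chr1:12166741-12166990 for TNFRSF1B, chr17:16972119-16972368 for TNFRSF13B, chr1:12063053-12063302 for TNFRSF8 and chr12:6383912-6384032 for LTBR.
CD27: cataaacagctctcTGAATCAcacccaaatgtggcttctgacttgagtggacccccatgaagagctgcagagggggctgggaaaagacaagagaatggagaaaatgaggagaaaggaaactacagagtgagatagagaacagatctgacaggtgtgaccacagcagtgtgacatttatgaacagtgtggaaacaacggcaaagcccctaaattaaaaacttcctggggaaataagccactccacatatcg
TNFRSF14: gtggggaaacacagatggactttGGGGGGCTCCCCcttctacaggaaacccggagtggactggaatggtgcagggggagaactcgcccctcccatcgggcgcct
TNFRSF1B: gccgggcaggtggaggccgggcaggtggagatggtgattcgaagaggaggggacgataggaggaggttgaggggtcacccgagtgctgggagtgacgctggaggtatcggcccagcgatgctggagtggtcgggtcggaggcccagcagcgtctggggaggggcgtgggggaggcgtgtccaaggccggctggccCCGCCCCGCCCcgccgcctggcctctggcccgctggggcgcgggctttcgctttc
TNFRSF13B: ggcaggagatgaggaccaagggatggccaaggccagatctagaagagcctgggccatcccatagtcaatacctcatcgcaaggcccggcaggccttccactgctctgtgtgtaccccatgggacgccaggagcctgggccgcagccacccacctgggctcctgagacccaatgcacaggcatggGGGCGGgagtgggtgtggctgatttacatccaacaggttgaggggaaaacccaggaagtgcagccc
TNFRSF8: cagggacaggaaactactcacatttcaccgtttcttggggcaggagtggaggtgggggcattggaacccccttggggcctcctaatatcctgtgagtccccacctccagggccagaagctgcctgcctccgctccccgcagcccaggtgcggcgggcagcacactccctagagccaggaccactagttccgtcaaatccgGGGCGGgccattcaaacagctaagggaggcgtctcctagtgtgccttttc
LTBR: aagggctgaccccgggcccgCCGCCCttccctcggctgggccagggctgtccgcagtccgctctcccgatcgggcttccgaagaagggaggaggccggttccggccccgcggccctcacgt
The kB match stood before the RefSeq start of TNFRSF14, as 3 overlapping placements in 1 stretch. The AP-1 match stood before that of CD27, and Sp1 matches stood before those of TNFRSF1B, TNFRSF13B, TNFRSF8 and LTBR. The CpG count in the whole window of 250 bases was 2 for CD27, 9 for TNFRSF14 and 22 for TNFRSF1B. It was 5 for TNFRSF13B, 9 for TNFRSF8 and 27 for LTBR, and so did not follow the order of the genes' levels. The RefSeq start of CD27 lies 975 bases before the first start that GENCODE release 29 gives. Those of LTBR and TNFRSF14 lie 9117 and 732 bases after it, so the bases shown for both are inside the annotated gene. The bases shown may therefore not be the promoters used in these cells. A match here is a run of letters and does not show that a factor binds.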

How the data were processed

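Polyadenylated RNA of Raji cells was sequenced in 3 bryostatin and 3 DMSO libraries, grouped by title. The authors deposited FPKM per gene and library with gene lengths. Without giving roles, the submitters' processing notes list hg38, DESeq2 1.20.0, featureCounts 1.5.0-p3, HISAT2 2.0.5 and CASAVA. Multiplied by gene length and divided by the library's smallest step, 100% of values came out whole (tolerance 0.001), and these were taken as reads. Their median-of-ratios factors over the deposited FPKM divisor gave a ratio of 1.0 in all 6 libraries. Gene lengths of the members equal the union of their GENCODE release 29 exons.

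The 11071 genes averaging 1 FPKM or more were put on the log2(FPKM + 1) scale and fitted in limma 3.58.1 (R 4.3.3), moderated with an intensity trend and Benjamini-Hochberg adjusted over all genes. Fold changes are on that scale, which understates changes of weak genes. Ratios were compared by exact permutation in scipy 1.17.1. The fit was tested on simulated reads. Members and lists were chosen with earlier results of these data known. Named are all members, the 3 most abundant tested genes of each pathway list, overlapping genes and the most similar genes. Alternatives were other pseudocounts, filters, scalings, moderation, voom weights, the replicate number as a block and each library left out. A listed B-cell marker is not reported here.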

Additional observations from a re-analysis of the deposited data

How the results depend on the processing

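All 125 recomputed log2 changes of the 8 tested members, over 16 alternatives, were negative, and none passed (adjusted p from 0.0569 to 0.936 in limma). The filters, the moderation without trend and the replicate block cannot alter a log2 change, only its p-value. Their signs were therefore fixed in advance and add nothing on direction. The number of all genes passing in limma was 1 with a pseudocount of 0.1 and with TPM (RNA5SP82 both times, named after its values were seen) and 0 to 267 with a library left out, 267 without DMSO replicate 3. A filter of 5 FPKM left 5 members tested, all 5 lower. The log2 ratio of TNFRSF13C to TNFRSF13B, bryostatin minus DMSO, was -0.24 with a pseudocount of 1 and -0.36 to 0.41 with a library left out. That of TNFRSF13C to TNFRSF17 was -0.23 with a pseudocount of 1 and -0.24 to 0.49 with a library left out. The ratio of CD27 to CD70 ranged from -0.48 to -0.23. Scaling by the median of ratios repeats the authors' divisor and so gave identical values. Scaling by total reads was chosen after seeing the data. TPM turned the split of genes at an unadjusted p under 0.05 to 848 higher and 1099 lower, from 1159 and 795 as deposited. With voom weights on the recovered reads 0 genes passed and 2184 had an unadjusted p under 0.05 in limma.

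The replicate number as a block leaves the log2 changes, and so the members' median of -0.41, unchanged in this balanced design. With the block, 0 genes and 0 members passed in limma. At an unadjusted p under 0.05 in limma there were 1191 genes with it, against 1954 without it, and 1 member, against 3. Same-numbered libraries did not deviate together (r = -0.292, -0.322 and -0.106). The deviations were taken within groups of 3 libraries, so these values cannot decide whether the numbers pair the samples. Depth limits TNFRSF17, TNFRSF8 and LTBR, with at most 52, 24 and 1 reads.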
